A study of Mus musculus with 13 samples.

Results

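The circadian clock genes described here are the period genes Per1, Per2 and Per3, the cryptochrome genes Cry1 and Cry2, the activator genes Arntl and Clock, the nuclear receptor genes Nr1d1 and Nr1d2, and the output gene Dbp. They were chosen by name, through the mouse symbol of each Ensembl identifier, and all 10 were found among the 42416 identifiers of the count tables. All 10 also passed the filter on low counts, which kept the 13360 genes with more than 1 CPM (counts per M counts of a library) in at least 5 libraries. Transcripts were measured by bulk RNA sequencing of interscapular brown adipose tissue (iBAT), with 1 library for each of 13 mice. The labels put 8 mice in the iFAXLKO group, with floxed Axl and Cre, and the remaining 5 in the WT group, with floxed Axl but no Cre. A high-fat diet (HFD), housing at room temperature and tamoxifen given every 3 weeks were common to both groups. In the methods of the study the Cre is an Adipoq-CreERT2 transgene carried on a bacterial artificial chromosome, which acts in adipocytes, so other cells of the tissue keep the floxed gene intact. The study gives the sequenced mice as females, with Cre-negative littermates as controls. Its feeding study of this line was also done in females, from young adulthood, while the age at harvest of these 13 mice is not given in the sources used here. The methods describe a reversed light cycle with the dark phase starting in the morning. The time of day at which each tissue was taken is not given in the sources used here, and each mouse gives a single time.

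In the clock of mammalian cells, the proteins encoded by Arntl (BMAL1) and Clock bind E-box elements as a dimer and activate the period and cryptochrome genes, Nr1d1, Nr1d2 and Dbp. The period and cryptochrome proteins then inhibit that dimer, and the REV-ERB proteins encoded by Nr1d1 and Nr1d2 repress Arntl, so that Arntl runs roughly opposite in phase to Nr1d1 and Dbp over the day. DBP, TEF and HLF activate genes through D-box elements. Brown fat holds a clock of this kind, and Per1 is also a known direct target of the glucocorticoid receptor.

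Of the members, 9 had promoter windows in the RefSeq table of GRCm38.p6, namely all but Per2. Their 13 windows of 250 bases before to 50 bases after an annotated start were searched on both strands for the letters of clock-related elements. The E-box CACGTG was found in 2 of the 13 windows, from Per1 and Cry1, against 7.15% of all 32851 windows of that length. The E-box variant CACGTT was found in 3 of the 13, from Cry1, Cry2 and Nr1d1, against 4.68% of all windows. The D-box TTATGTAA was found in 1 of the 13, from Per3, against 0.938% of windows. The REV-ERB element core TAGGTCA or TGGGTCA was found in 1 of the 13, from Arntl, after the start, against 6.45%. The cyclic AMP response element TGACGTCA (1.79% of windows) and the steroid receptor core AGAACA (19.0% of windows) were in none of these windows. A match is a description of the letters and does not show that a factor binds there. The stretches before the start that hold the matches follow, 5′ to 3′ on the strand of the gene, with the matched letters in capitals, because they show which members share an element of the loop.
Cry1, chr10:85185084-85185158, minus strand: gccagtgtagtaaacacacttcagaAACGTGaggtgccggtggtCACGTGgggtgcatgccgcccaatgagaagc
Per1, chr11:69098758-69098813, plus strand: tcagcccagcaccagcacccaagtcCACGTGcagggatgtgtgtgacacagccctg
Cry2, chr2:92434205-92434260, minus strand: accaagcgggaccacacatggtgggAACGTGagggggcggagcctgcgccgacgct
Nr1d1, chr11:98775378-98775430, minus strand: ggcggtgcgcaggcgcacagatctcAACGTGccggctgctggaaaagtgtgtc
Per3, chr4:151044791-151044895, minus strand: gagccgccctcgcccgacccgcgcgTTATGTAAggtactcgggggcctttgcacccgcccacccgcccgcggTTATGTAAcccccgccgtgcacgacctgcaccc
Cry1 thus held the E-box 60 bases and its variant, read on the opposite strand, 79 bases before the start, and Per3 held 2 copies of the D-box.

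The libraries held 22.44 to 32.6 M counts, and the 12 brown adipocyte markers summed to between 15000 and 25560 CPM, against 23.4 to 132 CPM for the white adipocyte list. The targeted gene Axl had 33.1 ± 6.16 CPM (SD, n = 8) in the libraries labelled iFAXLKO and 27.8 ± 3.83 CPM (SD, n = 5) in WT, which is not lower in the former, so every direction given for iFAXLKO rests on the labels. The 12 fibroblast markers summed to 668 to 1353 CPM in the libraries labelled iFAXLKO and 503 to 844 CPM in WT, and all 12 had positive log2 fold changes, with a median of 0.63. Of these 12 markers, 10 had an unadjusted edgeR p below 0.05, as did 7.38% of all genes tested. All 9 tested macrophage markers were positive too (median 0.40, 8 at an unadjusted edgeR p below 0.05, summed 152 to 285 CPM against 122 to 178 CPM), as were all 5 tested erythroid markers (median 0.34, summed 386 to 685 CPM against 285 to 709 CPM). The 15 skeletal muscle markers ranged from 57.3 to 6409 CPM and from 96.7 to 4589 CPM in these groups. The library WT replicate 2 stood apart in that genes with longer exons had lower values, with a slope of -0.22 (log2 per doubling of exon length) against -0.03 to 0.08 in the others.

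All 10 genes were expressed in iBAT, at low to moderate levels. Per kilobase of exon, which allows levels of different genes to be compared, Cry1 had the highest mean over the 13 libraries at 12.7 ± 1.40 CPM per kb (SD, n = 13). Per2 (10.3 ± 5.50) and Per1 (9.36 ± 4.57) followed on the same scale, with spreads that cover the gaps to their neighbours. Cry2 stood at 7.09, Nr1d1 at 6.33, Clock at 5.36, Per3 at 4.36, Arntl at 3.76, Nr1d2 at 3.15 and Dbp at 2.35 CPM per kb. Neighbours in this order differed by less than the larger SD of each pair, except that Clock exceeded Per3 and Nr1d2 exceeded Dbp. Dbp, an output that is counted among the strongly rhythmic genes of many tissues, was the lowest of the members here, with 132 to 252 counts per library.

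The members differed widely in how far they varied between mice. Per2 spanned 5.56-fold and Per1 4.54-fold from the lowest to the highest of the 13 libraries, whereas the other 8 members spanned 1.43-fold (Cry2) to 2.01-fold (Per3). The SD of log2 CPM within groups was 0.82 for Per2 and 0.59 for Per1, larger than for 97.9% and 95.6% of all genes tested. For Cry1 it was 0.10, larger than for only 6.3% of genes. Arntl (33.9%) and Cry2 (21.2%) were also among the steadier genes, and Clock, Dbp, Nr1d2, Per3 and Nr1d1 lay between 57% and 78.8%.

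**Figure D1:**
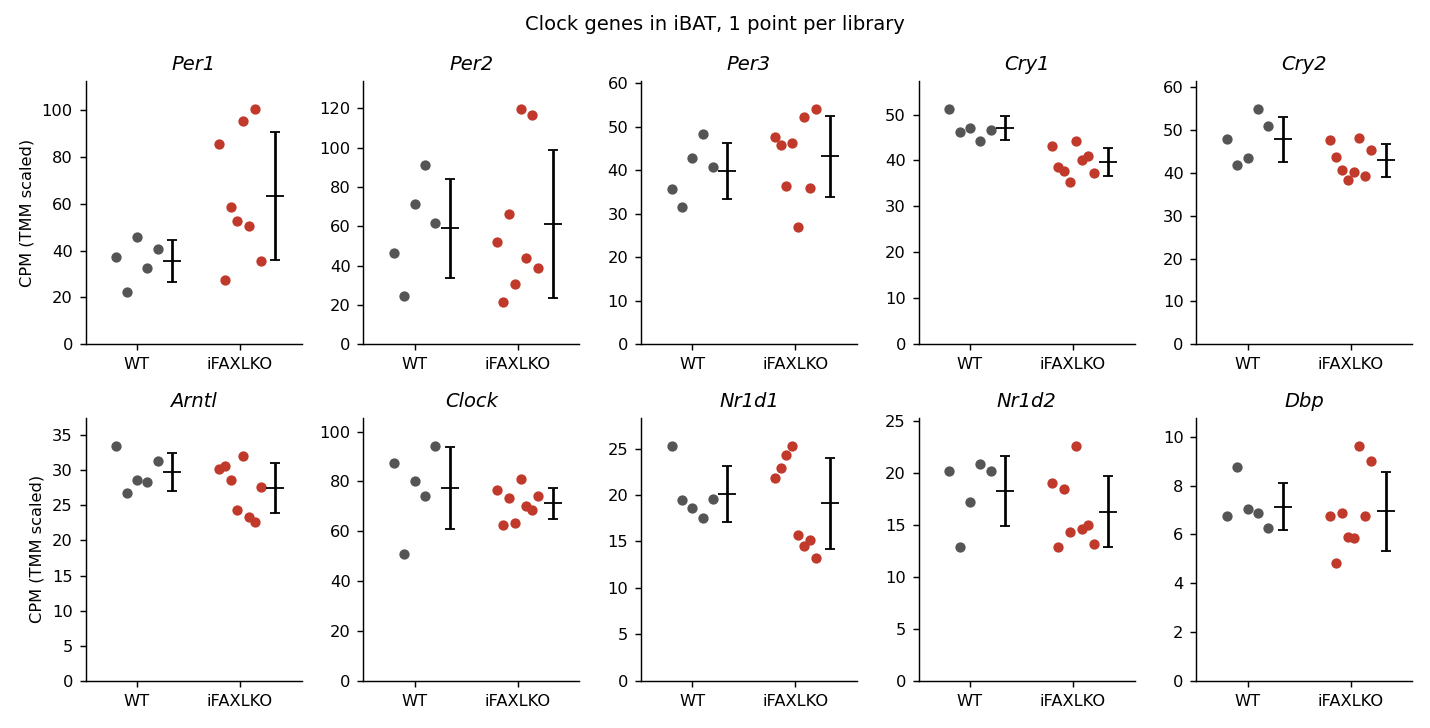
Level of each clock gene in CPM (vertical axes, scaled by TMM and starting at 0) in the 5 WT (grey) and 8 iFAXLKO (red) libraries, 1 point per library in replicate order, with mean and SD as the bar beside them. Cry1 lies lower in iFAXLKO with little spread, Per1 and Per2 are widely spread, and the iFAXLKO values of Nr1d1 form an upper and a lower set of 4.

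The comparison of the groups asks which clock transcripts differ in brown fat between Cre-positive and Cre-negative mice with floxed Axl. No member passed the limit of an adjusted p of 0.05 in edgeR's quasi-likelihood test, where 0.127% of all genes tested did (17 genes). At an unadjusted p below that limit there were 2 members, Per1 (higher) and Cry1 (lower), and 7.38% of all genes. DESeq2 likewise called 0 members, with 2 at an unadjusted p below the limit. The log2 fold changes of the members had a median of -0.09, with 3 positive and 7 negative, and those of all genes a median of -0.01. For no member were the CPM ranges of the groups apart, as they were for 0.434% of genes.

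Per1, a repressor of the loop that also responds to hormones, had 37.4, 22.2, 45.7, 32.5 and 40.7 CPM in WT replicates 1 to 5. In the 8 libraries labelled iFAXLKO its lowest, median and highest values were 27.5, 55.7 and 101 CPM. Of these 8 libraries, 6 lay above every WT library, and replicates 2 and 8 lay within the WT range. The means were 63.3 ± 27.5 CPM (SD, n = 8) and 35.7 ± 8.96 CPM (SD, n = 5). The log2 fold change was 0.82 (SE 0.31, 95% interval 0.154 to 1.496), the adjusted p was 0.554 in edgeR, and the exact permutation test over all divisions of the libraries into 8 and 5 gave a 2-sided p of 0.0528. Within the libraries numbered below 300 in the labels the log2 difference was 0.63, and within those numbered above 300 it was 0.82.

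Per2, the second period repressor, had 46.3, 24.6, 71.4, 91.2 and 61.8 CPM in WT. In iFAXLKO its lowest, median and highest values were 21.5, 48.0 and 119.5 CPM. The groups overlapped almost wholly, and replicates 5 and 7 of iFAXLKO were the highest libraries of all. The means were 61.2 ± 37.6 CPM (SD, n = 8) and 59.1 ± 25.2 CPM (SD, n = 5), and the log2 fold change of 0.05 had a 95% interval of -0.91 to 1.01.

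Per3, a period gene that is less needed for the rhythm itself, had 35.7, 31.4, 42.7, 48.4 and 40.7 CPM in WT and a lowest, median and highest value of 26.9, 46.0 and 54.0 CPM in iFAXLKO. The groups overlapped, with 2 iFAXLKO libraries above and 1 below all WT libraries. The log2 fold change was 0.12 (95% interval -0.21 to 0.44). Per3 was lowest in iFAXLKO replicate 5, in which Per1 and Per2 were high, and the log2 difference was 0.27 below and -0.13 above library number 300.

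Cry1, which encodes a strong repressor of the activator dimer, was the steadiest member and the one with the smallest p. It had 51.2, 46.3, 47.2, 44.2 and 46.7 CPM in WT, and a lowest, median and highest value of 35.3, 39.3 and 44.3 CPM in iFAXLKO. Of the 8 libraries, 7 lay below every WT library, and replicate 5 exceeded only WT replicate 4, by less than 1 CPM. The means were 39.6 ± 3.07 CPM (SD, n = 8) and 47.1 ± 2.54 CPM (SD, n = 5). The log2 fold change was -0.25 (SE 0.07, 95% interval -0.39 to -0.10), with an exact permutation p of 0.00311, 2-sided, for this single gene. Over all genes tested the adjusted p was 0.381 in edgeR, where Cry1 ranked 77 by p, and 0.065 in DESeq2, so the difference did not pass the limit. It was -0.32 within the libraries numbered below 300 and -0.16 above, and with the fibroblast score as a covariate it was -0.20, at an unadjusted edgeR p of 0.0817. The part of the fibroblast content in this value was not tested beyond that fit, and that of macrophages was not tested. Over the 13 libraries, with group means subtracted, Cry1 went with the skeletal muscle score at r = 0.63 and rho = 0.76. The permutation p was 0.0266 and 0.00645, or 0.415 and 0.251 when adjusted over 130 relations of members with measures of the libraries.

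Cry2, its paralog, had 47.8, 41.7, 43.6, 54.9 and 51.0 CPM in WT and a lowest, median and highest value of 38.4, 42.2 and 48.0 CPM in iFAXLKO. There were 4 iFAXLKO libraries below all WT libraries and 2 WT libraries above all of iFAXLKO, with overlap between. The log2 fold change was -0.16 (SE 0.08, 95% interval -0.33 to 0.02, adjusted p 0.717 in edgeR). Reads shared by the cryptochrome paralogs, or by the period paralogs, could be divided between them in a way the files do not show.

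The activators differed little. Arntl had 33.5, 26.7, 28.7, 28.3 and 31.4 CPM in WT and a lowest, median and highest value of 22.7, 28.1 and 32.0 CPM in iFAXLKO, with 3 iFAXLKO libraries below all of WT. Its log2 fold change was -0.12 (95% interval -0.32 to 0.09). Clock had 87.3, 51.1, 80.2, 74.3 and 94.3 CPM in WT and 62.4, 71.9 and 80.9 CPM as lowest, median and highest in iFAXLKO. The WT libraries thus held both the lowest value (replicate 2) and the highest (replicate 5) of this gene. The log2 fold change of Clock was -0.12 (95% interval -0.37 to 0.13) and was -0.24 without WT replicate 2, at an adjusted p of 0.291 in edgeR. Clock has 13727 bases of exon, the longest of the members, and WT replicate 2 is the library with low values of long genes.

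Nr1d1, the gene of REV-ERBα, had 25.3, 19.4, 18.6, 17.6 and 19.6 CPM in WT. In iFAXLKO replicates 1 to 4 it had between 21.8 and 25.3 CPM, and in replicates 5 to 8 between 13.3 and 15.7 CPM, so that the WT libraries lay largely between these sets. The means of the groups were 19.1 ± 4.92 CPM (SD, n = 8) and 20.1 ± 3.01 CPM (SD, n = 5), and the log2 fold change was -0.07 (95% interval -0.42 to 0.28). Nr1d2, the gene of REV-ERBβ, had 20.2, 12.9, 17.2, 20.9 and 20.2 CPM in WT and 12.9, 14.8 and 22.6 CPM as lowest, median and highest in iFAXLKO. Its groups overlapped and its log2 fold change was -0.17 (95% interval -0.48 to 0.15). The exons of Nr1d1 overlap those of Thra on the opposite strand over 263 bases, 8.55% of its exon length, and Thra had a mean of 2995 counts against 533 for Nr1d1. Whether counting used strand is not given in the sources used here, so a share of the counts of Nr1d1 may come from Thra.

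Dbp, a direct output of the activator dimer, had 6.74, 8.78, 7.03, 6.88 and 6.28 CPM in WT and a lowest, median and highest value of 4.83, 6.75 and 9.62 CPM in iFAXLKO. The groups overlapped, with 3 iFAXLKO libraries below and 2 above all of WT. The means were 6.95 ± 1.61 CPM (SD, n = 8) and 7.14 ± 0.96 CPM (SD, n = 5), and the log2 fold change was -0.04 (95% interval -0.36 to 0.28). Its exons overlap those of Sphk2 on the opposite strand over 539 bases, 18.0% of its exon length, and Sphk2 had a mean of 921 counts against 189 for Dbp, so the level of Dbp is uncertain in the same way.

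Of the 25 genes on the list of clock partners and outputs, 24 passed the filter on low counts (all but Fbxl21) and 0 passed the limit in edgeR or DESeq2. Their log2 fold changes had a median of -0.05, with 10 positive and 14 negative. The single gene at an unadjusted p below the limit was Fbxw11, a subunit of the ubiquitin ligase that marks period proteins for degradation, with a log2 fold change of -0.20 and an adjusted p of 0.659 in edgeR. Of the genes that act through the D-box, Tef had a log2 fold change of -0.06, Hlf one of -0.16 and their antagonist Nfil3 one of 0.26. Npas2, which can stand in for Clock, had -0.07, and Nampt, the clock-driven enzyme of NAD synthesis, had -0.07. Rora, an activator of Arntl, had -0.18 with an interval that includes 0, and Rorb had -0.43 at a mean of only 1.99 CPM in WT. With the fibroblast score as a covariate in edgeR, 0 members, 0 partners and outputs and 181 of all 13360 genes had an unadjusted p below the limit. With the skeletal muscle score these counts were 2, 1 and 983. As for the members, the part that the proportions of cells play in these values was not tested beyond such fits. In bulk tissue fewer cells of a type cannot be told apart from less RNA per cell.

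**Figure D2:**
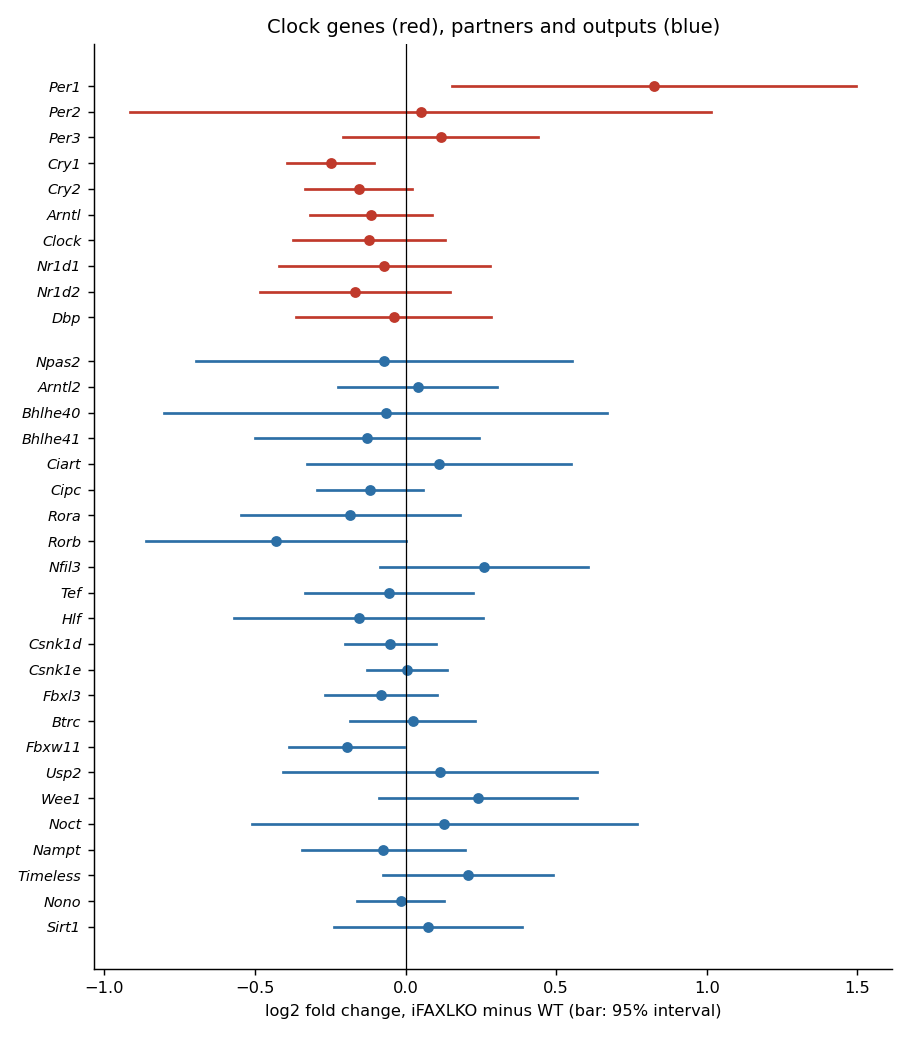
Log2 fold change of iFAXLKO against WT (horizontal axis) with its 95% interval from edgeR, for the 10 clock genes (red) and the tested partners and outputs (blue, all but 1). The intervals of Per1, at 0.82, Cry1, at -0.25, and Fbxw11, at -0.20, do not include 0 before adjustment for multiple tests, and those of Per2 and Bhlhe40 are among the widest.

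Phase relations were examined as correlations of log2 CPM over the 13 libraries after the group means had been subtracted, for all 45 pairs of members. With permutation p-values adjusted over the 45 pairs, 0 passed the limit, and 8 had an unadjusted p below it. The share of all pairs of genes tested at such an unadjusted p was not computed, so the count of 8 has no background beside it. An absolute Pearson r of at least 0.7 was reached by 4 pairs, and by 6.8% of all pairs of genes tested, so the count of 4 in 45 is near the background. Without WT replicate 2, 1 pair reached that r and 4 pairs had an unadjusted p below the limit.

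The largest correlation was that of Per1 and Per2, with r = 0.83 and Spearman rho = 0.83 over n = 13 libraries (permutation p = 0.00149, adjusted 0.0616, and 0.00175, adjusted 0.0787). It was 0.88 within iFAXLKO and 0.72 within WT, 0.86 and 0.89 within the libraries numbered below and above 300, and 0.72 once the 2 libraries most distant from the median Per1 level were dropped. Its adjusted p crossed the limit when WT replicate 4 (0.0133), iFAXLKO replicate 7 (0.0436) or iFAXLKO replicate 8 (0.0369) was left out, or when the skeletal muscle (0.031) or fibroblast score (0.0315) was a covariate. It was farther from the limit without WT replicate 2 (0.305), without iFAXLKO replicate 5 (0.171), in the iFAXLKO libraries alone (0.291) and without subtraction of the group means (0.178, at r = 0.68).

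Clock and Nr1d2 had r = 0.76 and rho = 0.67 (permutation p = 0.00274 and 0.0122, adjusted 0.0616 and 0.138, n = 13), and r was 0.69 without the 2 farthest libraries, 0.63 without WT replicate 2, 0.91 below and 0.42 above library number 300. Nr1d2 also went with Per2 (r = 0.73, rho = 0.78, permutation p = 0.00937 and 0.00503, adjusted 0.111 and 0.113) and with Per1 (r = 0.71, rho = 0.72, permutation p = 0.00985 and 0.012, adjusted 0.111 and 0.138). Without the 2 farthest libraries these r were 0.58 and 0.83. The 4 pairs with an absolute r of at least 0.7 thus lay among Per1, Per2, Clock and Nr1d2. By contrast Per1 had r of -0.40 with Per3, -0.10 with Nr1d1 and -0.13 with Dbp, and Per2 had r of -0.33, -0.39 and -0.07 with the same genes.

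The pairs of Arntl with Dbp and with the REV-ERB genes, of which Dbp and Nr1d1 run roughly opposite to it, gave a mixed picture. Arntl and Dbp had r = -0.51 and rho = -0.55 (permutation p = 0.12 and 0.0867, adjusted 0.359 and 0.39, n = 13), with r of -0.39 and -0.49 in the lower and upper library numbers and -0.42 without the 2 farthest libraries. Arntl and Nr1d1, the target and its repressor, had a positive r of 0.34 and rho of 0.31 (permutation p = 0.296 and 0.351, adjusted 0.608 and 0.681), and r was 0.07 without the 2 farthest libraries. Arntl and Nr1d2, the other repressor, had r = 0.54 and rho = 0.445 (permutation p = 0.0743 and 0.157, adjusted 0.321 and 0.531). That r was 0.57 without the 2 farthest libraries, and 0.54 and 0.65 in the lower and upper library numbers. Nr1d1 and Dbp, both outputs of the activator dimer, had a negative r of -0.58 and rho of -0.48 (permutation p = 0.0855 and 0.153, adjusted 0.321 and 0.531), at -0.27 and -0.76 within the library number ranges. Arntl had r of 0.03 with Per1 and 0.02 with Per2. None of these relations passed the limit.

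**Figure D3:**
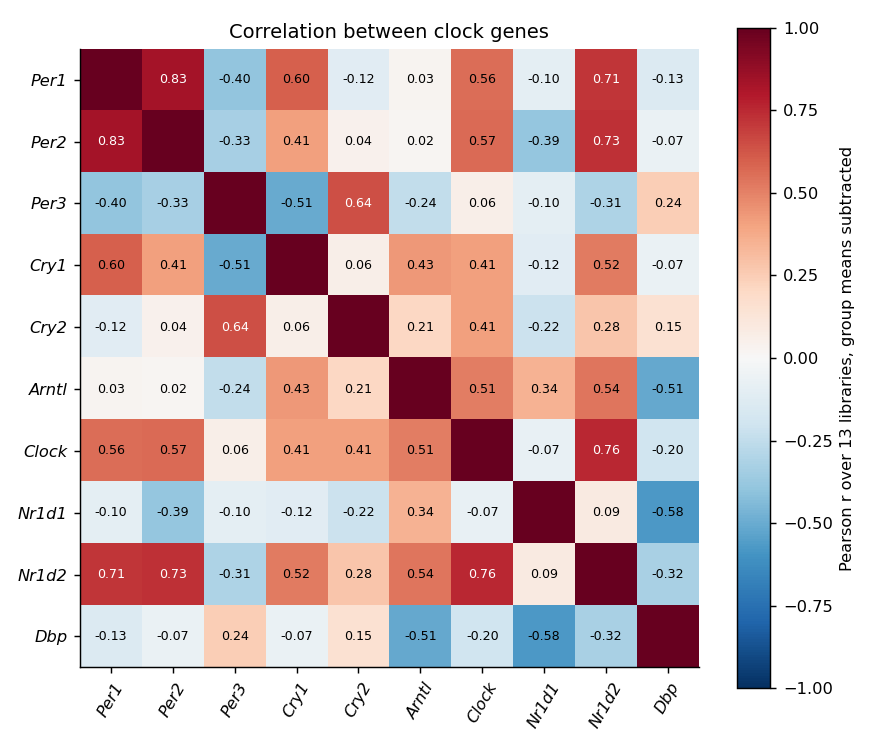
Pearson r between clock genes over 13 libraries with group means subtracted (color from -1, blue, to 1, red, with the value in each cell). Per1, Per2, Clock and Nr1d2 are positive with each other, at 0.56 to 0.83, and Cry1 is positive with each of them, at 0.41 to 0.60. Nr1d1 and Dbp stand at -0.58.

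Among 13 measures of the libraries, which leave out the scores of the clock lists themselves, Per1 and Per2 had their largest correlations with the glucocorticoid response score. With the score of the clock partners and outputs r was 0.75 for Per1 and 0.86 for Per2, given as a description without a test. The glucocorticoid response score of a library was the mean log2 CPM of the other 11 genes of its list, without Per1. Per1 correlated with it at r = 0.82 and rho = 0.87 (permutation p = 0.00289 and 0.0018, n = 13), Per2 at r = 0.72 and rho = 0.76 (permutation p = 0.00999 and 0.00612), and Nr1d2 at r = 0.71 and rho = 0.73 (permutation p = 0.00758 and 0.0104). Adjusted over 130 relations of 10 members with 13 measures of the libraries, these were 0.188 and 0.234 for Per1, 0.216 and 0.251 for Per2, and 0.216 and 0.256 for Nr1d2, and 0 of the 130 relations passed the limit. The relation of Per1 was 0.78 below and 0.95 above library number 300 and 0.82 without the 2 farthest libraries. That of Per2 was 0.83, 0.99 and 0.79 in the same order, and that of Nr1d2 was 0.91, 0.71 and 0.69. Cry1 went with this score at r = 0.655 and rho = 0.64 (permutation p = 0.0387 and 0.0406, adjusted 0.415 and 0.454). Per3 went against it, at r = -0.61 and rho = -0.63 (permutation p = 0.0544 and 0.0502, adjusted 0.415 and 0.454). Per1 and Per2 went against the white adipocyte score, both at an adjusted p of 0.216 for r. That score was the mean of only 4 tested genes, of which Lep had the largest spread within groups (SD of log2 CPM 1.72). For Per1 r was -0.60 and rho -0.59 (permutation p = 0.00979 and 0.028, n = 13), with r of -0.60 and -0.70 below and above library number 300 and -0.53 without the 2 farthest libraries. For Per2 r was -0.66 and rho -0.72 (permutation p = 0.00982 and 0.00772), with r of -0.71, -0.80 and -0.63 in that order. The part of white adipocytes in these levels was not tested.

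Tsc22d3, which encodes the glucocorticoid-induced protein GILZ, had 225, 194 and 234 CPM in iFAXLKO replicates 1, 5 and 7, the libraries with the highest Per1 (85.6, 95.6 and 101 CPM). It had 94.8 CPM at most in WT and 59.3 to 120 CPM in the other iFAXLKO libraries. Ddit4 was likewise highest in these 3 libraries, at 59.8, 44.6 and 52.5 CPM, and at most 28.9 CPM elsewhere. Not every gene of the list followed this order. Pdk4 had 2463, 4004 and 2191 CPM in these 3 libraries and 2407 to 3967 CPM in WT. The list itself had 0 of its 12 genes past the limit between the groups and 1 at an unadjusted p below it, Per1, with 8 positive and 4 negative log2 fold changes. With the score as a covariate, an alternative chosen after seeing the data, the log2 fold change of Per1 was 0.68 at an adjusted p of 0.306 in edgeR, and the r of Per1 and Per2 was 0.61. Whether the mice differed in stress, feeding or hour of harvest was not tested, since no label gives these.

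**Figure D4:**
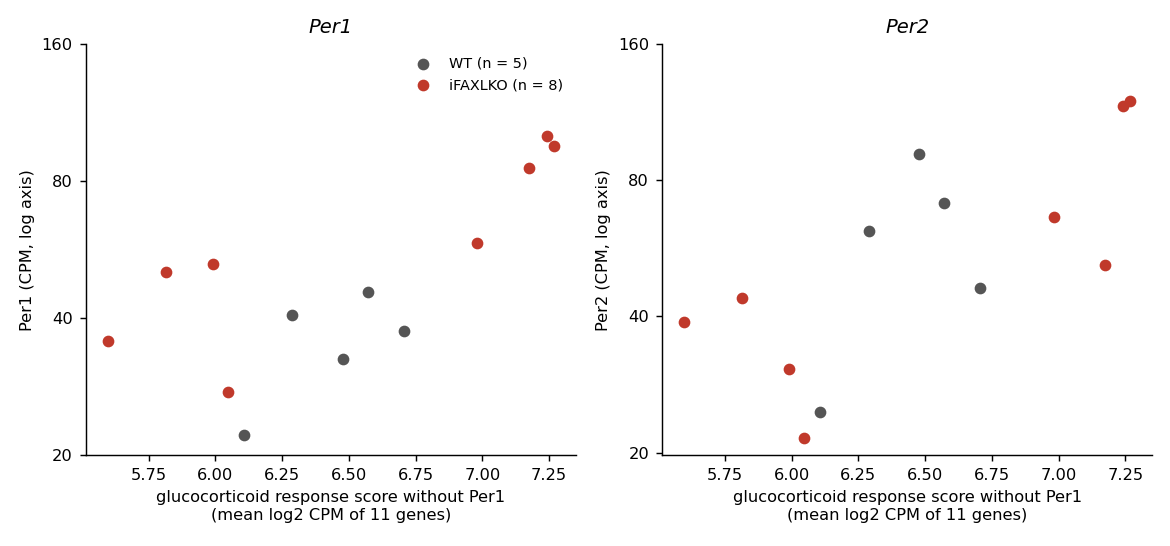
Per1 (left) and Per2 (right) in CPM on a log axis against the glucocorticoid response score without Per1 (mean log2 CPM of 11 genes), 1 point per library, WT grey (n = 5) and iFAXLKO red (n = 8). The 3 iFAXLKO libraries with the highest score hold the 3 highest values of Per1, and r over the 13 libraries with group means subtracted is 0.82 for Per1 and 0.72 for Per2.

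Nr1d1 varied with the library number of the labels, whose meaning the labels do not give. After subtraction of the group means r was -0.86 and rho -0.78 over n = 13 libraries (permutation p = 0.00217 and 0.0118, adjusted over the 130 relations 0.188 and 0.256), and r was -0.91 without the 2 farthest libraries. Within the ranges below and above 300 it was -0.40 and -0.51. The iFAXLKO libraries numbered above 300 differed from those below by -0.69 in mean log2 CPM, whereas in WT the difference was -0.17. As a result the log2 difference between the groups was 0.17 below 300 and -0.34 above, and the difference of these differences was not tested. Without WT replicate 1, left out after seeing the data because of its high Nr1d1, the difference between the groups below 300 was 0.31 and that between the ranges in WT was -0.03.

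Hlf, a partner of Dbp on the D-box, showed the opposite order within iFAXLKO. It had 26.0 to 35.0 CPM in the iFAXLKO libraries below 300 and 37.6 to 62.0 CPM in those above, and 40.3 to 54.2 CPM in WT. Dbp had 4.83 to 6.86 CPM and 5.87 to 9.62 CPM in these iFAXLKO sets, which overlap. Over the 13 libraries, with group means subtracted, Hlf correlated with Dbp at r = 0.81 and with Nr1d1 at r = -0.80, given as descriptions without a test. Noct, an output gene that encodes a phosphatase of NADP, had 44.9 to 88.2 CPM below and 93.8 to 194 CPM above 300 in iFAXLKO. Fbxw11 had 36.2 to 38.9 CPM and 41.5 to 45.6 CPM in the same sets. Hlf, Noct and Fbxw11 were named after their values were seen, and the share of all genes tested that separate in this way was not counted. The WT libraries did not separate in this way. Hlf had 42.9 to 54.2 CPM below and 40.3 to 49.7 CPM above 300 in WT, and Noct 58.8 to 117 CPM and 86.9 to 120 CPM. For these genes the library number and any difference among mice in hour of harvest, litter or handling cannot be told apart.

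**Figure D5:**
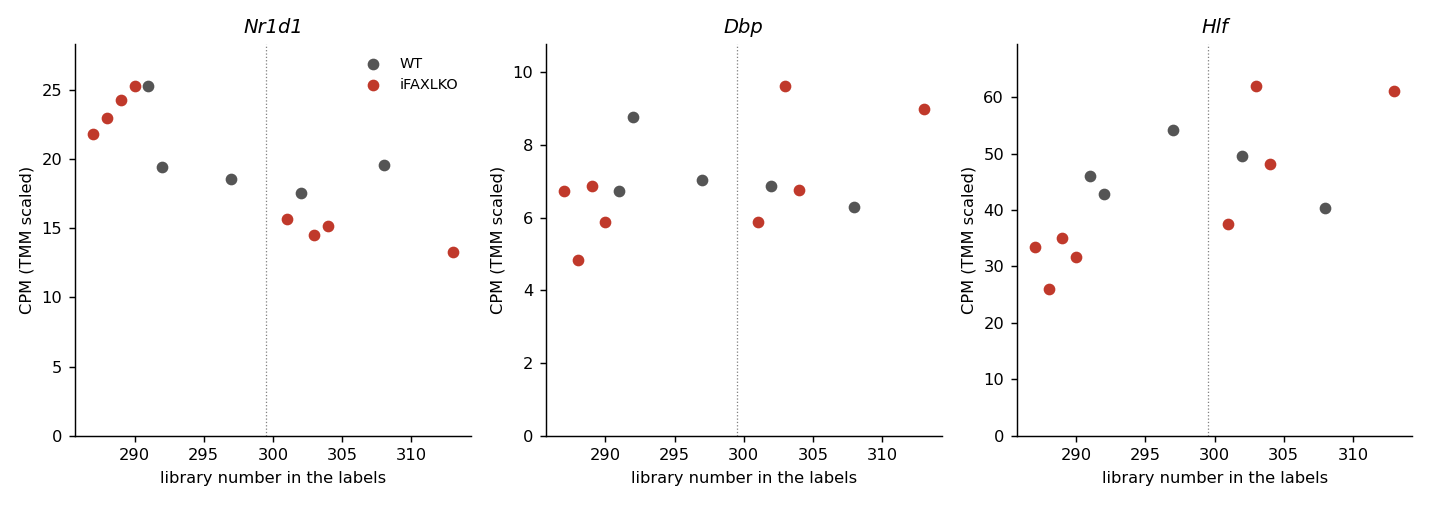
Nr1d1, Dbp and Hlf in CPM (vertical axes from 0) against the library number of the labels, 1 point per library, WT grey and iFAXLKO red, with a dotted line between the ranges below and above 300. In iFAXLKO, Nr1d1 lies at 21.8 to 25.3 CPM on the left and at 13.3 to 15.7 CPM on the right, Hlf is higher on the right, and Dbp overlaps.

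The genes most like a member were ranked by Pearson r over the 13 libraries, with group means subtracted, as a description without a test. With Dbp the highest values outside the members were those of Tmem185a (0.93), Taf5l (0.91), Rfxank (0.89), Ube2e3 (0.89) and Fancl (0.87), and the lowest those of Uckl1 (-0.88), Xpc (-0.87), AI662270 (-0.84), Gm36595 (-0.84) and Gm49519 (-0.84). With Arntl the highest were E130308A19Rik (0.90), Nploc4 (0.89), 4931406C07Rik (0.87), Il17rb (0.87) and Rbbp8 (0.87), and the lowest Cdk4 (-0.93), Preb (-0.92), Trmt12 (-0.90), Nop2 (-0.89) and Wdr5b (-0.88). None of these 20 genes is on the list of clock partners and outputs. By contrast, the gene closest to Per1 of all genes tested was Ciart, a clock-controlled repressor of the activator dimer, at r = 0.94, a case named after its values were seen. Ciart had 7.25, 6.65 and 6.13 CPM in iFAXLKO replicates 5, 7 and 1, its highest values, and 2.56 CPM in replicate 2, its lowest. Sirt1, a deacetylase that acts on the clock proteins, was the 23rd closest gene to Per2, at r = 0.89. An absolute r of at least 0.7 was shared by Clock with 16.3% of genes, by Nr1d2 with 6.46%, by Per2 with 6.0% and by the other members with 0.868% (Nr1d1) to 3.44% (Per1). For Clock the r with the slope on exon length was 0.84 (rho 0.53, permutation p = 0.0314 and 0.0892, adjusted 0.415 and 0.553, n = 13), and 0.33 without WT replicate 2.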

How the data were processed

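Bulk RNA sequencing of iBAT from 13 mice was re-analysed from raw read counts per Ensembl gene, as the authors deposited them, 1 table per library. The submitters' processing notes name bcl2fastq 2.20, fastp 0.20.0, STAR 2.7.4a, DESeq2 and GRCm38.p6, whereas the methods of the study name Trim Galore and hisat2. Polyadenylated RNA is given in the labels and depletion of ribosomal RNA in the methods. How reads were counted, and whether by strand, is not given in the sources used here. Exon lengths came from GENCODE M21, and symbols, for 42263 identifiers, from a table of gene names.

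After the filter on low values, TMM-scaled counts of 13360 genes were tested with edgeR 4.0.16 (quasi-likelihood F test, robust, 2-sided, R 4.3.3) on all libraries without covariates. The p-values were adjusted by Benjamini-Hochberg over all genes, with a limit of 0.05, and SE is the fold change divided by the square root of F. A prior count of 2 was used for log2 CPM. The smallest p of the exact permutation test is 0.000777, and correlations used 100000 permutations within groups. The edgeR fit and the correlation test were tested on simulated data. The chi-square per degree of freedom between libraries of a group was at least 15.26, so none was a copy of another in its group. Libraries of different groups were not compared in this way. A count of 0 (limit 3 counts) allows 0.092 to 0.134 CPM, for counting error only. Nothing says more of how the mice were sampled, so p-values measure the spread between these libraries.

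Members, lists and tests were chosen with earlier results of these data known. Names were limited to the members, the partners and outputs, the 5 genes most and least like Dbp and Arntl, up to 3 members of another list, and Axl. Alternatives were DESeq2 1.42.0, limma-voom (limma 3.58.1) with sample weights, other scalings, filters and dispersions, a block on replicate number, covariates (library number, skeletal muscle, fibroblast and, added after seeing the data, glucocorticoid response scores) and each library left out. The values of 1 gene on the list of partners and outputs are not reported here. For correlations, no subtraction of group means, a prior count of 0.5 and the 8 iFAXLKO libraries alone were tried as well.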

Additional observations from a re-analysis of the deposited data

Results flagged for a closer look

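Each member was checked for a library far from the others of its group, in 20 groups of values. Nr1d1 in WT replicate 1, at 25.3 CPM, lay far above the other WT libraries, which had 17.6 to 19.6 CPM: the gap to the nearest of them exceeded Dixon's critical value for 5 samples. Such a gap arises by chance in about 1 of 20 groups. Without WT replicate 1 the log2 fold change of Nr1d1 was 0.03. WT replicate 1 was also the library with the most counts of the lymphocyte markers, at 47.0 CPM summed against 4.48 to 8.44 CPM in the other WT libraries, and the part of these cells in the value of Nr1d1 was not tested.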

How the results depend on the processing

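The count of members past the limit was 0 in all 26 alternatives, as was that of partners and outputs. The count of genes called, 17, was 67 in DESeq2, 7 with the replicate number as a block and 8 with the fibroblast score as a covariate, and 14 to 19 with 1 library left out. Whether the replicate numbers pair libraries is not given in the sources used here, and the values do not settle it. Deviations of same-numbered libraries correlated at -0.61 to 0.42, and 4 of 10 libraries correlated best with their own number across groups. Of 260 log2 fold changes of members, 244 kept their direction and side of the limit and 16 changed sign, all of members not called. Per2 was -0.50 in limma-voom, -0.14 in the block, -0.23 with the fibroblast and -0.16 with the glucocorticoid score, and ranged from -0.16 to 0.26 with 1 library left out. Clock was 0.085 with the fibroblast score. Nr1d1 was 0.13 in the block and ranged from -0.129 to 0.026 with 1 library left out. Dbp was 0.014 with library sizes free of abundant and mitochondrial genes and 0.29 with the fibroblast score, and ranged from -0.121 to 0.044 with 1 library left out. The count of pairs past the limit, 0, was 1 without subtraction of the group means, 2 with the muscle score, 4 with the fibroblast score and 0 to 5 with 1 library left out (2 without WT replicate 4, 5 without iFAXLKO replicate 7, 2 without iFAXLKO replicate 8). The cause of these changes was not tested. Every member had at least 132 counts in every library. The share of counting error in the spread between mice was not computed, and the hour of harvest of each mouse is unknown.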
